A study of Rattus norvegicus with 58 samples.

Results

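Transcripts of 5 genes of osteoclasts and bone remodelling were followed in synovial RNA of rats across 10 sample groups. The genes are Ctsk (ENSRNOG00000021155), Acp5 (ENSRNOG00000046261), Runx2 (ENSRNOG00000020193), Tnfrsf11b (ENSRNOG00000008336) and Spp1 (ENSRNOG00000043451). They were taken by Ensembl identifier from a list chosen for their roles in bone, and make up 5 of the 16879 genes in the table. All 5 passed the filter on low values and are among the 13062 genes tested. Arthritis was induced in female DA/OlaHsd rats aged 6 to 8 weeks with pristane, a hydrocarbon oil that provokes a joint disease resembling rheumatoid arthritis (pristane-induced arthritis, PIA). Treatment began the day after each hind limb had reached a score of at least 3. It consisted of RTD-1, rhesus theta-defensin 1, a cyclic antimicrobial peptide, at 5 mg/kg under the skin, or of saline alone. The 44 arthritic libraries comprised 4 from untreated rats. Rats given saline supplied 4 at day 1, 8 at day 3 and 8 at day 5, and so did rats given RTD-1. The 14 libraries without arthritis comprised 4 from naive rats and, from healthy rats under RTD-1, 5 at day 3 and 5 at day 5. None of the 10 groups was of healthy rats given saline. The labels do not say when the untreated and naive rats were sampled, nor do they tie libraries to animals, and p-values therefore reflect library-to-library spread alone.

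Bone is renewed by osteoclasts, cells of the monocyte lineage that dissolve mineral and digest collagen, and by osteoblasts, which lay down new matrix. Osteoclasts form when RANKL, made by osteoblasts, synovial fibroblasts and T cells, binds its receptor RANK on their precursors. Osteoprotegerin is a soluble decoy receptor that captures RANKL. In inflamed joints, osteoclasts at the border between synovium and bone are known as the cells that carry out erosion.

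Reads in genes numbered 464693 in the shallowest library and 7716834 in the deepest. Values are given as normalized reads, that is, reads at the depth of the median library. A single read was worth between 0.329 and 3.36 normalized reads. All 10 libraries of healthy rats given RTD-1 were sequenced more deeply than any naive, untreated PIA or arthritic RTD-1 library. Depth and group therefore cannot be told apart in comparisons with these 10 libraries. Differences are given on the log2(normalized reads + 1) scale from 1 limma fit over all libraries, and a gene was called at a Benjamini-Hochberg adjusted p under 0.05. Under the deposited scaling the median gene lay 0.28 (log2) higher in PIA than in naive libraries. TMM factors, which rescale each library after trimming the genes with the most extreme ratios, brought that median to about 0, and member differences under TMM are relative to it. Levels are not compared between genes, because gene lengths were not used.

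In untreated PIA against naive synovium, 4 of the 5 genes were called. The resorption enzymes Ctsk and Acp5 and the transcription factor Runx2 were higher, and Tnfrsf11b, which encodes osteoprotegerin, was lower. Spp1, which encodes the bone matrix protein osteopontin, was not called. Over all genes tested, 27.8% were called higher and 11.4% lower, so 3 of 5 higher and 1 of 5 lower stand against a background in which calls were common. The median difference of the 5 genes was 1.17 (log2), against 0.28 for all genes. In bulk tissue, fewer cells of a type and less RNA per cell cannot be told apart.

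**Figure D1:**
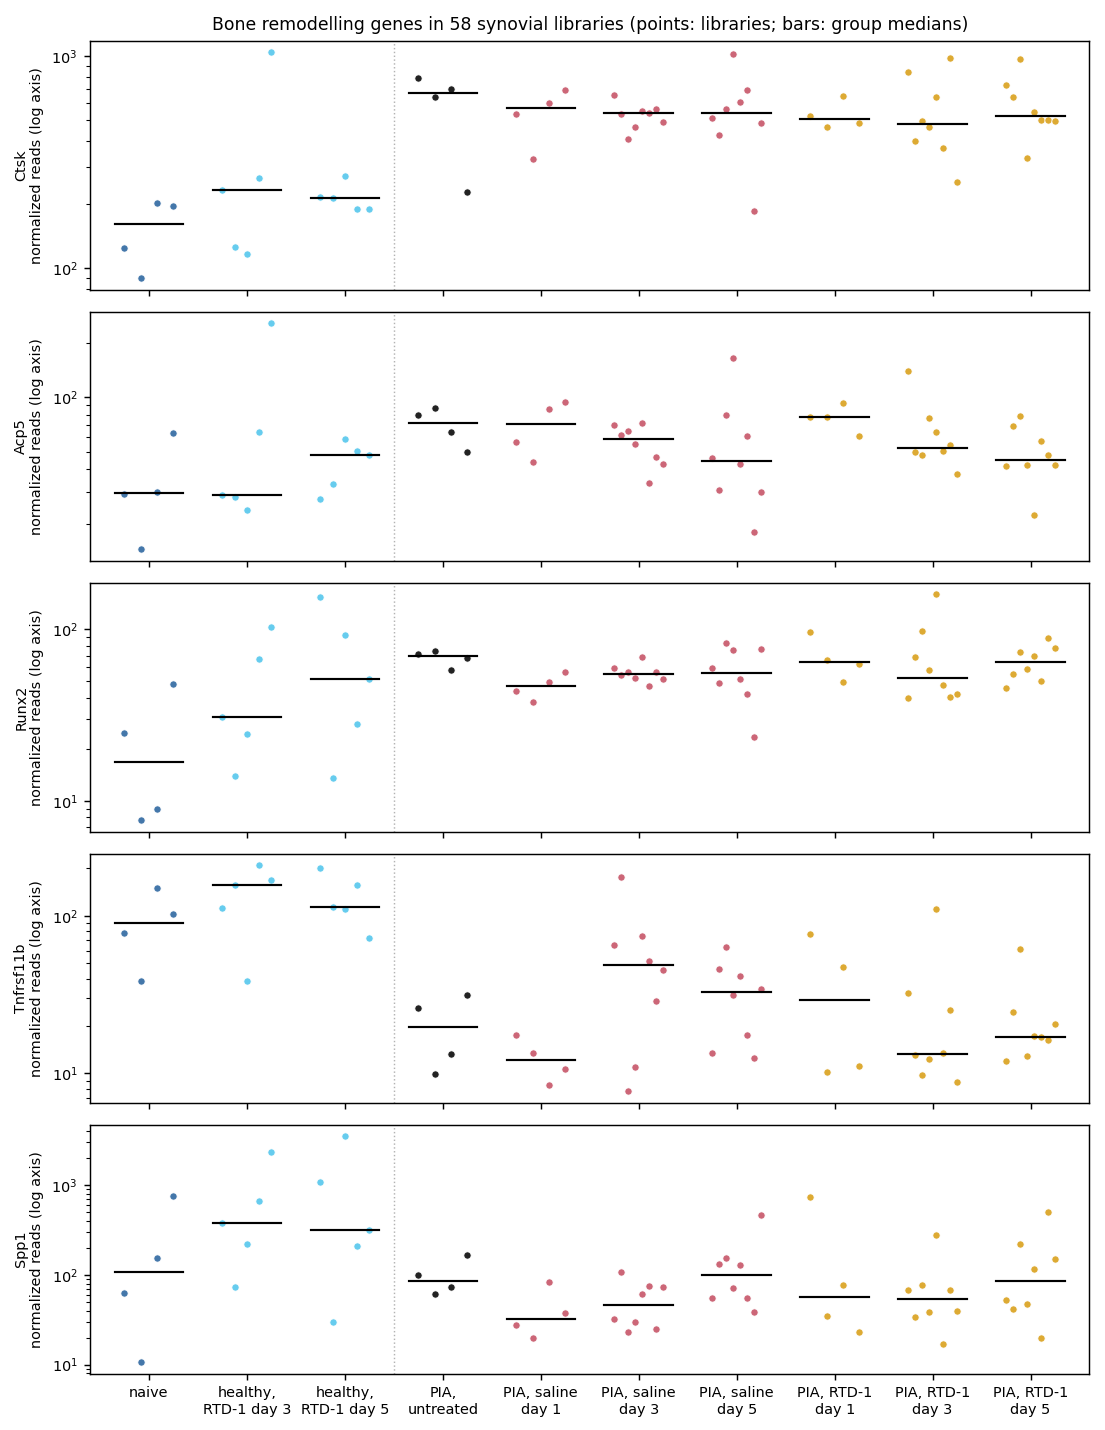
Normalized reads (log axis) of each gene in every library, by group, with bars at the group medians and the dotted line between groups without and with arthritis. Ctsk lies at 185 or more in all 44 arthritic libraries, while Tnfrsf11b lies between 7.69 and 177 there and Spp1 spreads most among the libraries without arthritis.

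Ctsk encodes cathepsin K, the cysteine protease with which osteoclasts digest type I collagen, and which synovial fibroblasts can also make. The naive libraries held 124, 89.3, 204 and 197 normalized reads. The untreated PIA libraries held 786, 645, 698 and 228. No PIA library overlapped the naive group, although PIA replicate 4 lay close above its highest value. Ctsk was 3.65-fold higher in PIA, a log2 difference of 1.87 (SE 0.431, 95% interval 1.00 to 2.73, limma adjusted p = 0.000485). With TMM factors the difference was 1.58.

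The median of every arthritic group lay above the highest naive library for Ctsk. Saline rats held 533, 603, 690.0 and 327 normalized reads at day 1. Their lowest, median and highest values were 409, 538 and 659.7 at day 3 and 185, 537 and 1028 at day 5. RTD-1 rats held 522, 465, 651 and 486 at day 1. At day 3 they ranged from 256 through a median of 478 to 979.8, and at day 5 from 333 through 524 to 972. Of the 44 arthritic libraries, 43 lay above every naive library. The exception was saline day 5 replicate 7, at 185.

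Ctsk in healthy rats given RTD-1 lay within or somewhat above the naive range, apart from 1 library far above. At day 3, 3 of 5 libraries lay above every naive library, and at day 5 again 3 of 5. The day 3 libraries held 235, 126, 117, 265 and 1047 normalized reads. The day 5 libraries held 217, 214, 271, 190.3 and 189.8. Replicate 5 of day 3, at 1047, was the highest Ctsk value of all 58 libraries. Ordered by mean log2 value, the 7 arthritic groups came first, followed by both healthy RTD-1 groups and then naive. No step between neighbouring groups in that order exceeded the larger of their within-group SDs, for Ctsk or for any of the other 4 genes.

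Acp5 encodes tartrate-resistant acid phosphatase, the classical histochemical stain of osteoclasts, which some macrophages also make. The naive libraries held 29.3, 14.4, 29.9 and 63.5 normalized reads. The untreated PIA libraries held 80.0, 87.5, 64.6 and 49.9. Naive replicate 4 lay above PIA replicate 4, so the groups overlapped. Acp5 was 2.25-fold higher in PIA (log2 difference 1.17, SE 0.485, 95% interval 0.20 to 2.14, limma adjusted p = 0.0494). This call sat at its threshold. With TMM factors it was lost (0.88, adjusted p = 0.122), as it was with limma voom on recovered reads (adjusted p = 0.0760), a pseudocount of 8 (0.0606), no filter (0.0535), and without PIA replicate 1, 2 or 3 or naive replicate 1, 2 or 3. Over the leave-one-out fits the adjusted p ran from 0.0175 to 0.212.

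Acp5 values overlapped those of naive rats in every arthritic group. Saline rats held 56.6, 86.3, 94.5 and 43.7 normalized reads at day 1. Their lowest, median and highest values were 33.6, 58.5 and 71.8 at day 3 and 18.0, 44.3 and 164 at day 5. RTD-1 rats held 77.9, 78.1, 93.2 and 61.2 at day 1. They ranged from 37.5 through 52.5 to 139 at day 3, and from 22.4 through 45.0 to 78.5 at day 5. For Acp5, 18 of the 44 arthritic libraries lay above every naive library, compared with 43 for Ctsk. Healthy rats given RTD-1 held 28.9, 27.9, 23.7, 64.2 and 257 at day 3, and 27.3, 33.0, 58.6, 50.6 and 47.9 at day 5. Of these, 2 of 5 at day 3 and 0 of 5 at day 5 lay above every naive library. The library at 257 was again replicate 5 of day 3. By mean log2 value the 3 highest groups were those of RTD-1 day 1, untreated PIA and saline day 1, and naive was lowest.

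Both enzymes varied together from library to library. Among the 44 arthritic libraries, Pearson's r between their log2 values was 0.61 and Spearman's rho 0.54 (permutation tests, p = 2e-05 and 0.00024, Benjamini-Hochberg adjusted over 20 relations 0.0004 and 0.0016). Without the 2 libraries farthest from the Ctsk median r was 0.54, and with TMM factors it was 0.44. It was 0.66 within replicates 1 to 4 (28 libraries) and 0.59 within replicates 5 to 8 (16 libraries). Among the 14 libraries without arthritis r was 0.90 and rho 0.65 (adjusted p = 0.00075 and 0.0345), and r was 0.58 without the 2 farthest libraries, 1 of which is the healthy library at 1047.

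The Ctsk promoter and the second of 2 Acp5 promoters are shown because these genes moved together. They run from 250 bases before to 50 after the annotated start (RefSeq, GRCr8), at chr2:185747298-185747597 on the + strand and chr8:28943880-28944179 on the - strand. Capitals mark 2 short motifs known from osteoclast regulation, searched on both strands, the NFAT core GGAAA and the E-box CATGTG of the kind MITF binds.
Ctsk: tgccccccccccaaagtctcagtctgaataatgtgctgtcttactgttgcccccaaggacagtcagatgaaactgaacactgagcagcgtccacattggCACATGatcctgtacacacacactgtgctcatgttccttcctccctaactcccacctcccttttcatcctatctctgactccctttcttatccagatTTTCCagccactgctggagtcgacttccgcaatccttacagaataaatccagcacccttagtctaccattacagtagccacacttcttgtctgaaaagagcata
Acp5: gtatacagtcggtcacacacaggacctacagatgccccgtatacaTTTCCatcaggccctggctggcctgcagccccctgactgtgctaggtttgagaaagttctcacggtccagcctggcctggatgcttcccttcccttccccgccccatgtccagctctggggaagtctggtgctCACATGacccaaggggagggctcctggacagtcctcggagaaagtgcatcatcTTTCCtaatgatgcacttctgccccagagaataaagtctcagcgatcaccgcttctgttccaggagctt
Both windows held the NFAT core, as TTTCC, at -54 in Ctsk and at -205 and -19 in Acp5 from the start. The E-box stood as CACATG at -151 in Ctsk and at -72 in Acp5. Of 33469 promoter windows of the same length, 62.7% held the NFAT core and 13.97% the E-box. The first Acp5 window held none of the 5 motifs searched. A match describes the letters only.

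Runx2 is the transcription factor that osteoblast formation requires, and chondrocytes use it as they enlarge before bone replaces cartilage. The naive libraries held 24.9, 7.69, 8.98 and 47.9 normalized reads. The untreated PIA libraries held 72.1, 74.6, 57.9 and 68.1. All 4 PIA libraries lay above all 4 naive libraries, and the PIA values were close together. Naive replicates 2 and 3 rest on few reads, 8 and 9. Runx2 was 3.78-fold higher in PIA (log2 difference 1.92, SE 0.486, 95% interval 0.94 to 2.90, limma adjusted p = 0.00133), and the difference was 1.63 with TMM factors.

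In treated arthritic rats Runx2 values also lay mostly above the naive ones. Saline rats held 43.9, 49.2, 56.7 and 37.7 normalized reads at day 1. Their lowest, median and highest values were 46.8, 55.1 and 69.3 at day 3 and 23.5, 55.5 and 83.5 at day 5. RTD-1 rats held 96.1, 66.6, 49.1 and 63.0 at day 1. They ranged from 39.96 through 52.4 to 161 at day 3, and from 45.3 through 64.3 to 88.9 at day 5. Of the 44 arthritic libraries, 34 lay above every naive library. The within-group SD of the arthritic groups was 0.45 (log2), the same as that of the median gene.

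Healthy rats given RTD-1 were far less uniform in Runx2. The day 3 libraries held 30.9, 13.97, 24.6, 67.5 and 104 normalized reads. The day 5 libraries held 155, 13.5, 93.0, 28.2 and 51.5. Both groups overlapped naive and the arthritic groups alike, with 2 of 5 libraries at day 3 and 3 of 5 at day 5 above every naive library. Over the 14 libraries without arthritis the within-group SD was 1.23 (log2), larger than that of 98.2% of genes tested and above the median gene's 0.33.

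Tnfrsf11b encodes osteoprotegerin, the decoy receptor that captures RANKL and restrains osteoclast formation. The naive libraries held 77.3, 38.4, 151 and 103 normalized reads. The untreated PIA libraries held 25.9, 9.94, 13.4 and 31.7. Every PIA library lay below every naive library. Tnfrsf11b was 4.33-fold lower in PIA (log2 difference -2.12, SE 0.692, 95% interval -3.50 to -0.73, limma adjusted p = 0.0126), and the difference was -2.40 with TMM factors. Without PIA replicate 2 the adjusted p was 0.0526, the only leave-one-out fit of 8 that lost the call. Some arthritic values rest on few reads, down to 4 recovered reads in 2 libraries of RTD-1 day 3.

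Treated arthritic libraries covered a wide band of Tnfrsf11b values. Saline rats held 17.6, 8.47, 10.6 and 13.6 normalized reads at day 1. At day 3 they held 65.6, 177, 7.69, 10.98, 74.2, 51.6, 28.8 and 45.6. At day 5 they ranged from 12.5 through a median of 32.8 to 63.6. Saline day 3 was the highest arthritic group, with replicate 2 above every naive library and replicates 3, 4 and 7 below every one. RTD-1 rats held 76.4, 10.2, 47.1 and 11.1 at day 1. At day 3 they held 32.4, 13.0, 9.81, 12.4, 109.8, 13.5, 25.2 and 8.81. At day 5 they ranged from 12.0 through 17.1 to 62.0. In both later RTD-1 groups 7 of 8 libraries lay below every naive library. Over all 44 arthritic libraries, 32 lay below every naive library and 1 above. The within-group SD of the arthritic groups was 1.04 (log2), larger than that of 90.8% of genes.

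Healthy rats given RTD-1 held the highest Tnfrsf11b values. They were 111, 157, 38.9, 210.5 and 168 normalized reads at day 3 and 201, 113, 111, 157 and 72.4 at day 5. Both groups overlapped naive, and their means were the 2 highest of the 10 groups. The lowest group mean was that of saline day 1.

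The ratio of Ctsk to Tnfrsf11b reads within a library does not depend on the library's scaling. It sets the transcript of a resorption enzyme against that of the decoy receptor for RANKL, and it was chosen after both genes' values were known. With Ctsk higher and Tnfrsf11b lower in arthritis, a separation of the groups by the ratio follows from that choice. It is no further evidence. In naive libraries it ran from 1.35 through a median of 1.76 to 2.33. In healthy rats given RTD-1 the medians were 2.11 at day 3 and 1.89 at day 5. In untreated PIA it ran from 7.21 through 41.2 to 64.9. Among saline rats the medians were 47.6, 10.6 and 14.8 at days 1, 3 and 5, and among RTD-1 rats they were 28.8, 29.7 and 27.8. Of the 44 arthritic libraries, 42 exceeded all 14 libraries without arthritis. The other 2 were saline day 3 replicate 2 (3.03) and RTD-1 day 3 replicate 5 (5.87), which lay below the healthy RTD-1 day 3 replicate 5 (6.22) and above the other 13.

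**Figure D2:**
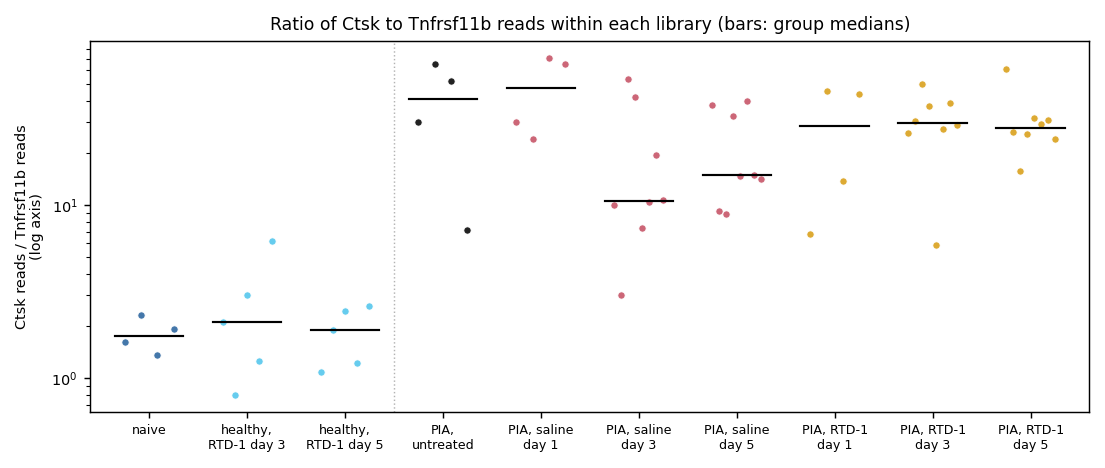
Ratio of Ctsk to Tnfrsf11b reads (log axis) in every library, by group, with bars at the group medians and the dotted line between groups without and with arthritis. Libraries without arthritis lie between 0.799 and 6.22, and arthritic libraries between 3.03 and 71.1.

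Spp1 encodes osteopontin, a phosphoprotein of bone matrix to which osteoclasts attach and which macrophages also secrete. It was the least uniform of the 5 genes. The naive libraries held 63.1, 10.6, 155 and 765 normalized reads. The untreated PIA libraries held 99.2, 60.6, 73.5 and 165. The PIA values all lay inside the naive range. The log2 difference was -0.053 (SE 1.10, 95% interval -2.26 to 2.15, limma adjusted p = 0.978), an interval wide enough to hold a difference of 2 (log2) either way.

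Spp1 had a median of 64.0 normalized reads over the 44 arthritic libraries and of 268 over the 14 without arthritis. Saline rats held 27.3, 84.2, 37.8 and 19.6 normalized reads at day 1. Their lowest, median and highest values were 23.1, 46.5 and 107 at day 3 and 38.7, 100.02 and 463 at day 5. RTD-1 rats held 731, 34.6, 77.2 and 23.2 at day 1. They ranged from 16.8 through 53.4 to 281 at day 3, and from 19.6 through 85.2 to 498 at day 5. None of the 44 arthritic libraries lay above the highest naive library. Single libraries far above the rest of their group were RTD-1 day 1 replicate 1 (731), RTD-1 day 3 replicate 5 (281), RTD-1 day 5 replicate 7 (498) and saline day 5 replicate 8 (463).

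Healthy rats given RTD-1 reached the highest Spp1 values. They held 381, 72.9, 223, 673 and 2313 normalized reads at day 3 and 1074, 30.0, 3536, 212 and 313 at day 5. The highest library of day 3 and the 2 highest of day 5 exceeded every naive library, and no healthy library was as low as the lowest naive one. Over the 14 libraries without arthritis the highest Spp1 value was 335-fold the lowest, and over the 44 arthritic libraries 43.5-fold. The within-group SD was 2.32 (log2) without arthritis, larger than that of 99.8% of genes, and 1.24 with it, larger than that of 96.6%.

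Spp1 and Runx2 varied together. Of the 10 pairs of the 5 genes without arthritis, Ctsk and Acp5 had the highest r (0.90), and Spp1 and Runx2 the highest rho. Among the 14 libraries without arthritis r between their log2 values was 0.88 and rho 0.91 (permutation tests, p = 7e-05 and 3e-05, adjusted over 20 relations 0.0007 and 0.0006). Without the 2 libraries farthest from the Spp1 median r was 0.85, within the 10 healthy RTD-1 libraries 0.91, and on values centred on their group means 0.87. Of the 10 pairs, 6 passed in these 14 libraries at an adjusted p under 0.05 for r and 5 for rho. The share of pairs that pass among all genes tested was not computed, here or in arthritic libraries. Counts of passing pairs therefore cannot be read as particular to the 5 genes. Spp1 was also related to Ctsk (r 0.70, adjusted p = 0.011) and Acp5 (0.70, 0.0127), and Runx2 to Ctsk (0.62, 0.0278) and Acp5 (0.62, 0.0313), all by permutation test. Without the 2 farthest libraries these r values were 0.59, 0.53, 0.47 and 0.44. By rho, in the same permutation tests, Spp1 and Runx2 passed with Ctsk (adjusted p = 0.0149 and 0.0327) and not with Acp5 (0.0957 and 0.0971). Ctsk and Tnfrsf11b passed by rho (0.65, adjusted p = 0.0345) and not by r (0.58, 0.064). Among the 44 arthritic libraries 3 of the 10 pairs passed. For Spp1 and Runx2 r was 0.57 and rho 0.49 there (adjusted p = 0.00075 and 0.0043). It was 0.50 without the 2 farthest libraries, 0.51 within replicates 1 to 4 and 0.67 within replicates 5 to 8. In arthritic libraries Spp1 was also related to Tnfrsf11b (r 0.53, rho 0.53, adjusted p = 0.0008 and 0.0016), with r 0.56 without the 2 farthest libraries, 0.63 within replicates 1 to 4 and 0.37 within replicates 5 to 8.

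**Figure D3:**
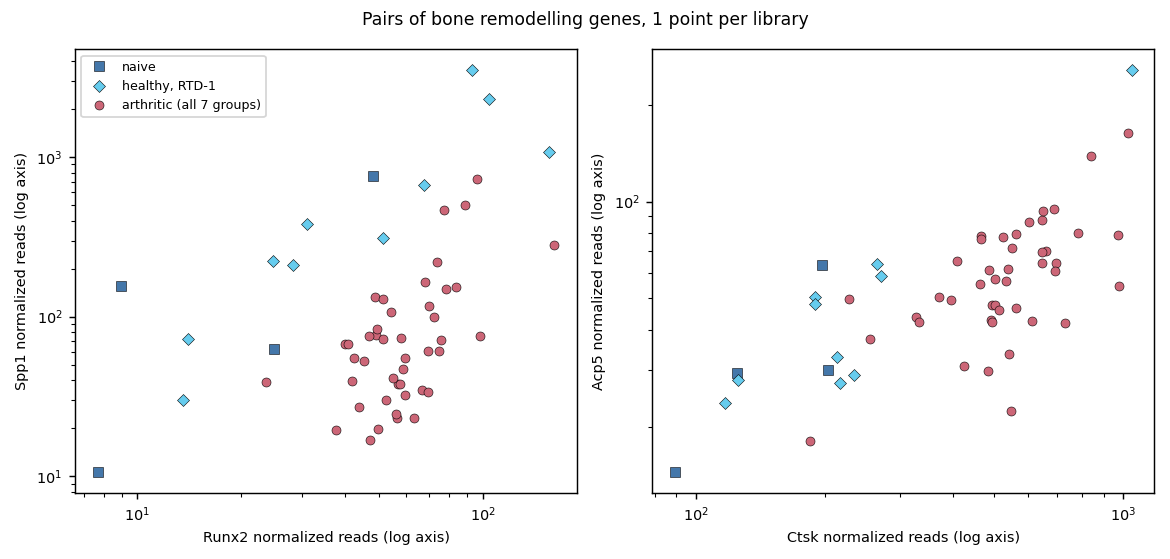
Spp1 against Runx2 (left) and Acp5 against Ctsk (right) in normalized reads, both axes log, 1 point per library, with squares for naive, diamonds for healthy RTD-1 and circles for arthritic libraries. At a given Runx2 level the healthy RTD-1 points lie at higher Spp1 than most arthritic points, and in the right panel the healthy RTD-1 library at 1047 for Ctsk is also the highest for Acp5, at 257.

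The Runx2 promoter at chr9:23664808-23665107 (+ strand) and the Spp1 promoter at chr14:5619755-5620054 (- strand) are shown for the same reason, with the same bases around the start. Capitals mark the NFAT core GGAAA, the E-box CATGTG, the core TGTGGT that RUNX factors bind and TATAAA, the letters of a TATA box wherever they stand.
Runx2: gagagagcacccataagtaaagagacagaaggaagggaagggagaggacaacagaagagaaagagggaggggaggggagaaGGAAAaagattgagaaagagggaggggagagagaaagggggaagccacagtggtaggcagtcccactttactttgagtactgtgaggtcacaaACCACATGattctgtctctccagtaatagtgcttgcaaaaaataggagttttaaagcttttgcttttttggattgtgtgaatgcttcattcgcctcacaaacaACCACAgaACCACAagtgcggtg
Spp1: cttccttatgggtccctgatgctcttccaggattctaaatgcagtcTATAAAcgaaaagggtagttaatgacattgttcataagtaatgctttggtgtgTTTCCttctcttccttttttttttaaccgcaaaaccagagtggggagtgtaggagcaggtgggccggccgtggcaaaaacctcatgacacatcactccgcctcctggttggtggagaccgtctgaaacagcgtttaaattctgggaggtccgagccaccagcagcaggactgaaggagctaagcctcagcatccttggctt
The Runx2 window held the RUNX core, as ACCACA, at -76, 28 and 36 from the start, the NFAT core at -169 and the E-box at -74, which overlaps the first RUNX core. The Spp1 window held TTTCC at -151 and TATAAA at -204. It held neither TGTGGT nor its reverse complement ACCACA, the only letters searched for a RUNX site. Of all promoter windows, 17.3% held the RUNX core and 14.2% held TATAAA. The AP-1 motif TGANTCA, present in 7.33% of windows, was in none of the 6 windows of the 4 matched genes. Runx2 has a second annotated start, whose window held the NFAT core at -49 and -28. Tnfrsf11b was not matched.

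Saline and RTD-1 rats were compared at each day to ask whether RTD-1 changed these genes in arthritic joints. No difference was called for any of the 5 genes at day 1, 3 or 5. Over all genes tested, 0% were called at day 1, 0.00766% at day 3 and 0% at day 5. At an unadjusted p under 0.05 the counts were 612, 1010 and 470 genes, and limma voom called 0 at each day. Ctsk differed by 0.021 (95% interval -0.84 to 0.89), -0.032 (-0.64 to 0.58) and 0.14 (-0.47 to 0.75) at days 1, 3 and 5. These intervals reach at most 0.89 on the log2 scale, under the 1.87 by which Ctsk differed between PIA and naive.

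Acp5 differed between RTD-1 and saline by 0.19, 0.14 and -0.0079 (log2) at days 1, 3 and 5. Runx2 differed by 0.52, 0.15 and 0.22. At days 3 and 5 the 95% intervals of both lay within -0.70 and 0.91. At day 1 they were wider, from -0.78 to 1.16 for Acp5 and from -0.46 to 1.49 for Runx2. Spp1 differed by 1.17, 0.26 and -0.17, with intervals from -1.04 to 3.37 at day 1 and from -1.73 to 1.39 at day 5. Its spread left differences of that size undetectable. The signs of some smaller differences changed with the setting. Ctsk at day 1, for one, was -0.15 with TMM factors. The larger Spp1 difference at day 1 kept its sign, but without replicate 1 of the RTD-1 group it fell from 1.17 to 0.13.

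Tnfrsf11b was the 1 gene of the 5 with an unadjusted p under 0.05. At day 3 its log2 difference, RTD-1 minus saline, was -0.99 (95% interval -1.97 to -0.0076, unadjusted p = 0.0483, limma adjusted p = 0.637). The difference was -1.05 within replicates 1 to 4 and -0.93 within replicates 5 to 8. It ran from -1.34 to -0.68 with each library left out in turn, with adjusted p between 0.272 and 0.890. At day 1 it had the opposite sign, 1.02 (-0.37 to 2.41), and at day 5 it was -0.49 (-1.47 to 0.49). The change of the RTD-1 difference from day 1 to day 3 and from day 3 to day 5 was called for none of the 5 genes, against 0.00766% and 0% of all genes. Unadjusted, 695 and 917 genes passed, voom called 0 in each, and Tnfrsf11b passed unadjusted between day 1 and day 3.

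**Figure D4:**
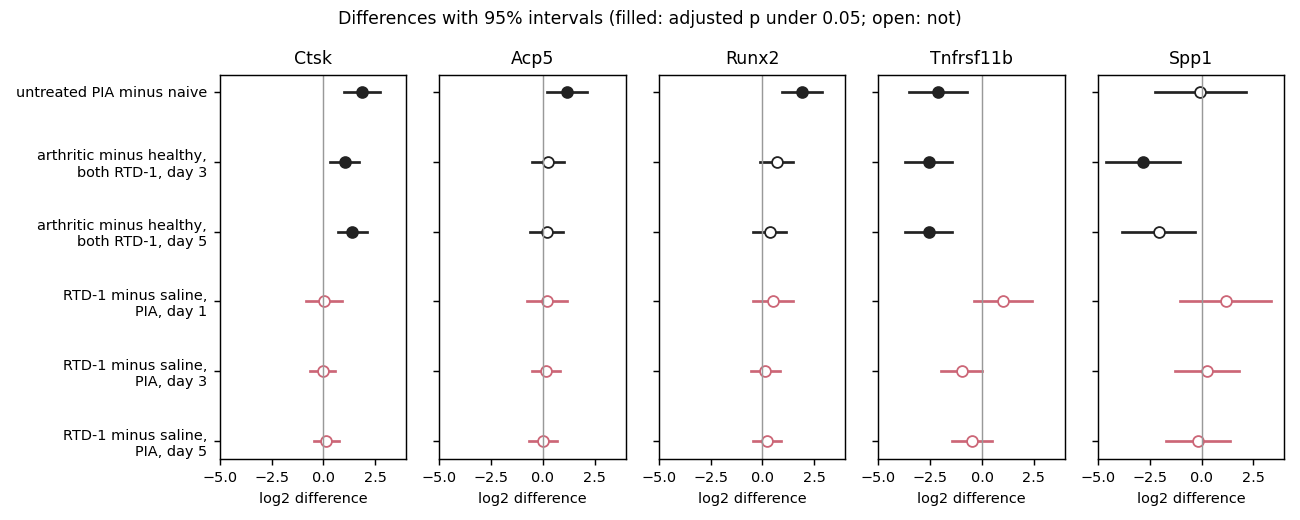
Log2 differences with 95% intervals for each gene in 6 comparisons, filled where the adjusted p is under 0.05 and open where it is not. Arthritis comparisons (black) hold all the filled points, and every RTD-1 against saline difference (red) is open, with the widest intervals for Spp1.

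None of the 5 genes was called in any treated arthritic group against untreated PIA. Over all genes, 0%, 0.0153% and 8.37% were called for saline at days 1, 3 and 5, and 0%, 0.00766% and 12.7% for RTD-1. At day 5, where calls among other genes were common, the 5 genes had median differences of -0.056 with saline and -0.050 with RTD-1. These medians span differences of opposite sign. With saline, Acp5 differed by -0.52 (interval -1.37 to 0.32) and Tnfrsf11b by 0.60 (-0.60 to 1.80). Runx2 differed by -0.32, Ctsk by -0.056 and Spp1 by 0.12. With RTD-1, Acp5 differed by -0.53 (-1.37 to 0.31) and Tnfrsf11b by 0.11 (-1.09 to 1.31). Runx2 differed by -0.098, Spp1 by -0.050 and Ctsk by 0.082. Intervals this wide cannot show that the genes stayed at their PIA level. Unadjusted, none of the 5 genes passed in these 6 comparisons. Unadjusted counts over all genes were 699, 1924 and 3398 for saline and 273, 1136 and 3873 for RTD-1, and voom called 0, 68 and 1425 and 0, 0 and 2087. Differences chosen after their values were seen were those of Spp1 in saline day 1, at -1.33, and Tnfrsf11b in saline day 3, at 1.06.

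After 5 days of either treatment, Ctsk and Runx2 were higher than in naive rats. These comparisons share the naive libraries with the one above, so they are not independent of it. With saline, Ctsk was higher by 1.81 (limma adjusted p = 0.000156) and Runx2 by 1.60 (0.00283), and 2 of the 5 genes were called higher against 16.5% of all genes. With RTD-1, Ctsk was higher by 1.95 (5.74e-05) and Runx2 by 1.82 (0.000731), against 14.5% of all genes. Tnfrsf11b was lower with RTD-1, with a difference of -2.004 (adjusted p = 0.00937), against 11.1% of genes called lower. With saline its difference was -1.52 (adjusted p = 0.0528), which passed with TMM factors (0.0252) and voom (0.0217). Its call with RTD-1 was lost within replicates 1 to 4 (0.0834) and without naive replicate 3 (0.0510). Acp5 differed from naive by 0.65 with saline (0.275) and 0.64 with RTD-1 (0.288).

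Arthritic and healthy rats that had both received RTD-1 share no library with the comparison of PIA and naive. Every healthy library here was deeper than every arthritic one, so depth and arthritis cannot be told apart. At day 3 Ctsk was higher by 1.03 (limma adjusted p = 0.0127), against 16.8% of genes called higher. Tnfrsf11b was 5.96-fold lower (-2.57, adjusted p = 0.000154) and Spp1 7.06-fold lower (-2.82, 0.00748), against 30.6% called lower. Acp5 differed by 0.25 (0.632) and Runx2 by 0.69 (0.146). At day 5 Ctsk was higher by 1.39 (0.00107), against 10.7% of genes, and Tnfrsf11b 5.98-fold lower (-2.58, 0.000194), against 33.6%. Spp1 differed by -2.07 (0.0521), Acp5 by 0.17 (0.743) and Runx2 by 0.35 (0.483).

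Replicate 5 of the healthy day 3 group, which was highest of its group for Ctsk, Acp5, Spp1 and Runx2, weighed on the day 3 values. Without it Ctsk was higher by 1.55 (adjusted p = 6.79e-05), Runx2 by 1.05 (0.0293) and Acp5 by 0.83 (0.0523), and the Spp1 difference was -2.18 (0.0508). The Ctsk call was lost in a fit of those 2 groups alone (0.103) and without healthy replicate 2 (0.0764) or 3 (0.0847). Within replicates 1 to 4 the Spp1 call was lost (0.112) and Acp5 was called (1.06, 0.0351). At day 5 Spp1 passed with voom (0.0367), with a pseudocount of 8 (0.0427), with a filter of 50 normalized reads (0.0473) and without RTD-1 replicate 4 or 7 or healthy replicate 2. With each library left out in turn the Spp1 difference ran from -2.98 to -1.27 and its adjusted p from 0.00676 to 0.271, the weakest without healthy replicate 3. The Tnfrsf11b calls of both days held in every setting run.

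Healthy rats given RTD-1 were compared with naive rats to see how the genes stood under RTD-1 without arthritis. Under the deposited scaling the median gene itself lay 0.30 (log2) higher than naive at day 3 and 0.34 higher at day 5. With TMM factors these medians were 0.033 and 0.040. At day 3 none of the 5 genes was called, against 11.8% of all genes. Spp1 differed by 2.03 (95% interval -0.059 to 4.13, limma adjusted p = 0.201), Runx2 by 1.09 (0.112), Ctsk by 0.77 (0.217), Acp5 by 0.73 (0.319) and Tnfrsf11b by 0.53 (0.661). Without healthy replicate 5 the differences were 1.40 for Spp1, 0.73 for Runx2, 0.26 for Ctsk and 0.14 for Acp5, and without naive replicate 2 they were 1.01 for Spp1 and 0.17 for Tnfrsf11b. Unadjusted, 3513 genes and 1 of the 5 (Runx2) passed, and voom called 2015 genes. Runx2 passed without naive replicate 4 (1.57, 0.0424) or healthy replicate 2 (1.44, 0.0390). At day 5 Runx2 was higher by 1.47 (adjusted p = 0.0264), against 12.9% of genes called higher. That call was lost with TMM factors (1.17, 0.147), voom (0.0880) and a fit of those 2 groups alone (0.259), and without naive replicate 2 or 3 or healthy replicate 1 or 3. Spp1 differed by 1.97 (0.202). The part that the greater depth of the healthy RTD-1 libraries has in these differences was not tested. Without a group of healthy rats given saline, RTD-1 and injection alone cannot be told apart here.

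The arthritis differences of Runx2 and Spp1 had unlike values in untreated and RTD-1 rats, so the change between them was tested as an interaction, PIA minus naive less arthritic minus healthy under RTD-1. For Runx2 it was 1.23 at day 3 (limma adjusted p = 0.186) and 1.57 at day 5 (95% interval 0.32 to 2.82, adjusted p = 0.0532). For Spp1 it was 2.77 (0.190) and 2.02 (0.287). None of the 5 genes was called, against 10.1% of all genes at day 3 and 27.6% at day 5, where the median gene itself stood at 0.46 and 0.58. Unadjusted, 3662 and 5202 genes passed, and voom called 1054 and 3980. Runx2 at day 5 was 1.01 with TMM factors (0.341). It passed with a filter of 50 normalized reads (0.0417) and without naive replicate 1 or 4, RTD-1 replicate 7 or healthy replicate 2 or 4.

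The genes whose log2 values followed each of the 5 most closely over the 58 libraries were sought among 8425 genes whose mean log2 value was 5 or more. The closest to Acp5 was Ctsk itself (r 0.70, 0.61 within arthritic and 0.90 within the other libraries). The closest to Tnfrsf11b was ENSRNOG00000024824 (0.91, 0.83 and 0.85), and that to Ctsk was ENSRNOG00000003736 (0.85, 0.73 and 0.63). For Spp1 it was ENSRNOG00000015285 (0.80, 0.61 and 0.86), and for Runx2 ENSRNOG00000011585 (0.79, 0.48 and 0.96). These r values are across libraries that share the contrast between arthritic and other groups, and no p is attached to them.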

How the data were processed

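RNA of rat synovial tissue had been made into stranded total RNA libraries and sequenced as single reads of 75 bases, per the labels' protocols. The submitters' processing notes list HISAT and DESeq, with no version. Not given in the sources used here are genome build, annotation and read counting. The values the authors deposited are on a log2 scale, 1 table for all 58 libraries. Per the deposited values, a library's values are log2 of whole reads multiplied by a library factor, with 0.9 of a read standing in for 0. Dividing the factor out gave whole reads for 100% of values (relative tolerance 0.001). The row without an identifier held at most 0.0137% of reads and was left out.

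Reads were scaled to the median library factor of 5.75 megareads. A gene was kept where 4 or more libraries held 10 or more normalized reads, which left 13062 genes. limma 3.58.1 in R 4.3.3 was fitted to log2(normalized reads + 1) with 10 group means, trend and robust settings, and two-sided Benjamini-Hochberg adjusted p-values over all genes. The limma test had been set for values assumed to be scaled reads, and the logarithm was undone first. Correlations had two-sided tests of 100000 permutations, whose smallest p is 1e-05. Values were shuffled over all arthritic or all other libraries without regard to group, so differences between group means enter these p-values. Replicate numbers pair no samples by the labels. The settings tried besides were TMM factors, pseudocounts of 0.5 and 8, no filter, a filter at 50 normalized reads, only the groups compared, replicates 1 to 4 or 5 to 8, a replicate block, limma voom on recovered reads, leaving out the 3 deeper saline libraries, and each library in turn. The scripts were tested on simulated data.

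The 5 genes and all lists, motifs, ratios and pairs were chosen with earlier results of these data known. All 5 genes are named. The genes most like them were those with the highest r, 1 per gene by identifier. The interaction of arthritis and setting was added after the data were seen. Other bone genes and markers of cell types in synovium were not analysed here, because the reference table pairs none of the identifiers with symbols, so the tissue label was not checked against markers. For the same reason the symbols of the 5 genes come with their list. Promoter sequences are from RefSeq (GRCr8) and matched 4 of the 5 genes by symbol.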

Additional observations from a re-analysis of the deposited data

Results flagged for a closer look

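In 12 of the 50 sets of 1 gene in 1 group, the highest library lay far from the rest by Dixon's gap criterion on normalized reads. With a normal spread, chance meets the criterion in about 1 of 20 sets. It was run before taking logarithms, where high values stand farther out than on the log2 scale. The 12 sets therefore cannot be weighed against that share, and the log2 scale was not checked. Replicate 5 of healthy RTD-1 day 3 was set apart for 3 genes. It held 1047 for Ctsk (next highest 265), 257 for Acp5 (64.2) and 2313 for Spp1 (673).

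Replicate 5 of RTD-1 day 3 was set apart for Spp1, at 281 (next 76.0), and for Tnfrsf11b, at 109.8 (32.4). It also held the highest Runx2 value of the 58 libraries, 161. For Spp1 the other libraries set apart were RTD-1 day 1 replicate 1, at 731 (77.2), RTD-1 day 5 replicate 7, at 498 (219.9), and saline day 5 replicate 8, at 463 (153). For Tnfrsf11b they were saline day 3 replicate 2, at 177 (74.2), and RTD-1 day 5 replicate 4, at 62.0 (24.6). For Acp5 they were saline day 5 replicate 4, at 164 (79.6), and RTD-1 day 3 replicate 1, at 139 (76.3). All 12 stood on the high side of their group, the side that the scale before the logarithm stretches.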

How the results depend on the processing

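Counts of the 5 genes called moved by over 1.5 times in few comparisons. For PIA against naive, leaving out single libraries gave 2 to 4 called genes, with 2 without PIA replicate 2. For healthy RTD-1 day 5 against naive the count of 1 became 0 with TMM factors, a fit of the 2 groups alone and limma voom, and 0 to 1 with each library left out. For day 3 it was 0 to 1 on leaving out libraries. For the interaction at day 5 it was 1 with the filter of 50 normalized reads, and 0 to 1 on leaving out libraries. The causes were not tested. Apart from fits with a library left out, 11 of the recomputed single differences gained a call, 10 lost one, 11 changed sign, and the others kept their direction and side of the threshold.

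A total of 15 single differences changed sign in 47 refits, up to 10 refits for 1 difference, and in none did either value pass the threshold. With TMM factors Ctsk for RTD-1 against saline at day 1 was -0.15, Acp5 at day 5 0.040 and Spp1 for saline day 5 against naive -0.011. Acp5 at day 5 was 0.034 with voom. Spp1 for saline day 5 against naive was -0.046 with a pseudocount of 8. Within replicates 1 to 4, Ctsk at day 3 was 0.047, Runx2 at day 5 -0.19 and Spp1 for saline day 5 against naive -0.021. Within replicates 5 to 8, Acp5 at day 5 was 0.22 and Spp1 at day 5 0.11.

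With each library left out in turn, ranges that crossed 0 were -1.08 to 0.94 for Spp1 in PIA against naive, -0.96 to 1.06 for Spp1 in saline day 5 against naive, -1.13 to 0.89 for Spp1 in RTD-1 day 5 against naive, -0.017 to 0.83 for Acp5 in arthritic against healthy at day 3 and -0.097 to 0.76 for Runx2 in arthritic against healthy at day 5. For RTD-1 against saline they were -0.20 to 0.16, -0.17 to 0.11 and -0.071 to 0.28 for Ctsk at days 1, 3 and 5, -0.011 to 0.35, -0.029 to 0.24 and -0.20 to 0.24 for Acp5, -0.076 to 0.49 and -0.52 to 0.15 for Spp1 at days 3 and 5, and -0.050 to 0.23 for Runx2 at day 3.

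With a replicate block, in which libraries share a number and no more, the count of called genes was the same in every comparison, 4 for PIA against naive and 0 for RTD-1 against saline at each day. Same-numbered deviations had r from -0.10 to 0.069 in PIA and naive, up to 0.14 for RTD-1 against saline at day 3 (2 of 8 pairs over 0.1), up to 0.28 at day 5 (3 of 8), and up to 0.22 for healthy RTD-1 day 3 against naive (2 of 4). Under the block the Spp1 difference of saline day 5 against naive was -0.16. Depth limits Tnfrsf11b and Spp1 most, at 4 and 5 reads in the shallowest libraries.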
